A study of Mus musculus with 4 samples.

Results

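The transcription factors that carry β-catenin to DNA, and the proteins that join them there, were followed in newborn mouse ventricles with and without a cardiomyocyte-directed deletion of Ctnnb1, the gene of β-catenin. The 10 genes were taken by name from the 53465 genes counted, with earlier results of these data known. They are the TCF/LEF factors Tcf7, Lef1, Tcf7l1 and Tcf7l2, the adaptors Bcl9 and Bcl9l, the Pygopus proteins Pygo1 and Pygo2, and the Groucho-type co-repressors Tle1 and Tle3. RNA came from ventricles at postnatal day 1. The 2 control libraries were from Ctnnb1floxP/floxP; alphaMHC-Cre- mice and the 2 knockout-labelled (Cre+) libraries from Ctnnb1floxP/floxP; alphaMHC-Cre+ mice, so both groups carried the floxed alleles and only 1 group the transgene. The latter are written Cre+ 1 and Cre+ 2 in the text and knockout 1 and knockout 2 in the plots. The alphaMHC promoter drives Cre in cardiomyocytes, which leaves the gene intact in the other cells of the ventricle. The labels do not say that each library was a separate animal, so p-values measure only the spread between these libraries.

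In canonical Wnt signalling, β-catenin that escapes degradation enters the nucleus and binds TCF/LEF factors, which sit on DNA through their high-mobility-group (HMG) box. Without it, TCF/LEF factors recruit Groucho/TLE proteins and hold their targets down. BCL9 or BCL9L binds β-catenin and links it to a Pygopus protein, which reads histone marks, and this chain helps to activate the targets. In the heart the pathway is best known for its roles in the early specification and the growth of cardiomyocytes. Tcf7 and Lef1 are also defining factors of T cells.

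The coding sequences of the TCF/LEF factors show how close these paralogs are and whether their reads can be told apart. The 90-base stretch at which the other factors best matched Lef1, by summed matches, lies in a single exon of each and encodes part of the HMG box. It is shown 5′ to 3′ on the coding strand, from GENCODE M21 transcripts on GRCm38, with the 63 bases that are identical in all 4 in capitals.
Lef1: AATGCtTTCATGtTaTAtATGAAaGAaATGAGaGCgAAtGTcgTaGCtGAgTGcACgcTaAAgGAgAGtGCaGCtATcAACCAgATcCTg
Tcf7: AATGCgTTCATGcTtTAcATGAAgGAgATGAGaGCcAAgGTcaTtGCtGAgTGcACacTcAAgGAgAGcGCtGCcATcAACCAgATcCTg
Tcf7l1: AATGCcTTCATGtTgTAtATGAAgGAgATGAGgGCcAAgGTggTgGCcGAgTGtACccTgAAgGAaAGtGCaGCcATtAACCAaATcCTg
Tcf7l2: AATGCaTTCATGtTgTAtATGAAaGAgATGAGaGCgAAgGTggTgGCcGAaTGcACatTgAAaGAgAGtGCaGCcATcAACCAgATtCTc
The stretches lie at chr3:131194689-131194778 (forward strand, exon 8 of Lef1), chr11:52256958-52257047 (reverse, exon 7 of Tcf7), chr6:72631224-72631313 (reverse, exon 10 of Tcf7l1) and chr19:55918946-55919035 (forward, exon 9 of Tcf7l2). Even here 27 of 90 bases were not the same in all 4 factors. In pairs with Lef1, 75 of 90 bases were identical in Tcf7, 73 in Tcf7l1 and 75 in Tcf7l2. No 2 of the 10 genes shared an identical run longer than 24 bases in any annotated transcript. On the coding strand of these transcripts, a longer read that matches 1 of the genes in full cannot match another of the 10 in full. Opposite strands were not compared. The sources used here do not give the read length.

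Single libraries stood apart before any comparison. The libraries held 34027143 to 45651797 counts in genes, and levels are given as CPM, the share of a library's gene counts scaled to a common total, after TMM scaling, which corrects for differences in composition. All 4 held cardiomyocyte transcripts, with the 11 listed markers between 120 and 26000 CPM. Control 1 alone held T-lineage and thymic epithelial transcripts at high levels. Cre+ 2 was the only one with high Xist, at 602 CPM against at most 0.327 elsewhere, and the only one without counts of the Y-linked Kdm5d, where 0 counts allow up to 0.101 CPM. Mitochondrially encoded genes took 5.25% and 7.65% of gene counts in the controls and 10.2% and 14.4% with the transgene, and the part of this difference in the results was not tested. Ctnnb1 itself was at 409 (control 1) and 434 CPM (control 2), against 527 (Cre+ 1) and 460 CPM (Cre+ 2) (adjusted p = 0.532, edgeR). Counted over all its exons and all cells of the ventricle, Ctnnb1 RNA does not check the labels.

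None of the 10 genes passed the test over all genes. With edgeR's quasi-likelihood test and Benjamini-Hochberg adjustment over 18157 genes, 0 of 10 had an adjusted p under 0.05, as against 0.011% of all genes (2 genes, both higher). At an unadjusted p under 0.05, 6 of 10 were lower in the Cre+ libraries and 0 were higher, where 11.2% of all genes were lower and 11.8% higher. The 6 were Tcf7 and Lef1, whose values rest on control 1, and Bcl9, Bcl9l, Pygo2 and Tle3. With offsets for GC content and length, 3 of 10 were lower at that p, where 9.58% of all genes were. DESeq2, a count test with other assumptions on the spread, called 3 lower (Lef1, Bcl9 and Bcl9l), where it called 4.65% of all genes lower and 5.85% higher, and limma-voom called 0. Both Cre+ libraries lay below both controls for 8 of 10 genes, where 29.7% of all genes did so, and above both for 0, where 26.5% did. The fitted log2 fold change was under 0 for 10 of 10, as it was for 51.5% of all genes. The median log2 fold change of the 10 was -0.52, against -0.02 over all genes tested. All 10 passed the filter on low counts.

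**Figure D1:**
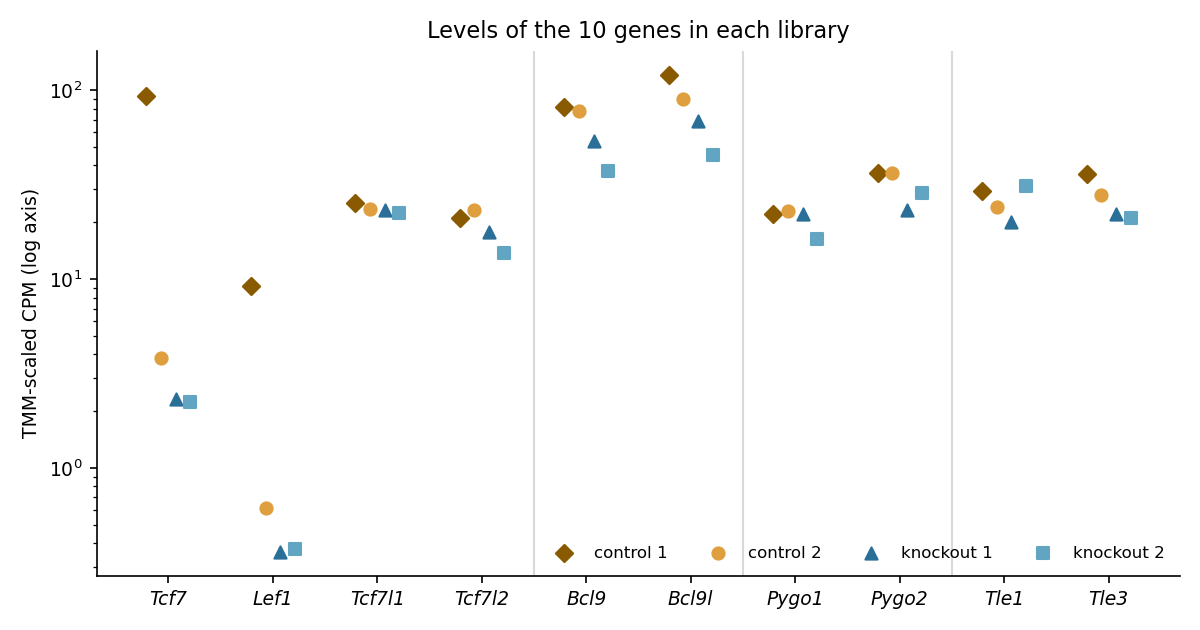
TMM-scaled CPM (log axis) of the 10 genes in each of the 4 libraries, 1 point a library. Tcf7 and Lef1 are high in control 1 alone (93.0 and 9.16 CPM), and the points of Bcl9 and Bcl9l fall below both controls in both Cre+ libraries.

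Tcf7 (ENSMUSG00000000782.15, chr11:52252371-52283014, reverse strand), the factor that gives TCF1 in T cells, differed most between libraries, and control 1 set the difference. It was at 93.0 CPM in control 1, 3.84 CPM in control 2, and 2.32 and 2.23 CPM in Cre+ 1 and Cre+ 2. Control 1 was thus 24.2 times as high as control 2, a larger gap than that between control 2 and either Cre+ library. With all 4 libraries the log2 fold change was -4.41 ± 1.35 (SE, n = 2 each; adjusted p = 0.142 in edgeR). Without control 1 it was -0.75 ± 0.48 with a 95% interval of -1.93 to 0.43 (adjusted p = 0.723 in edgeR). Without control 2 it was -5.34 (adjusted p = 0.0351 in edgeR), and Tcf7 was then the 1 gene of the 10 called lower, where 0.156% of all genes were. Between control 2 and each Cre+ library the 95% counting intervals did not meet, being 3.31 to 4.43 CPM against 1.90 to 2.82 and 1.73 to 2.84 CPM, though these cover counting error only.

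Lef1 (ENSMUSG00000027985.14, chr3:131110471-131224356, forward strand), the other factor of T cells and a long-used readout of Wnt signalling, was scarce outside control 1. It was at 9.16 CPM in control 1, 0.613 CPM in control 2, and 0.361 and 0.372 CPM in Cre+ 1 and Cre+ 2. The last 3 values rested on 30, 16 and 11 counts, and their 95% counting intervals, 0.414 to 0.875, 0.206 to 0.586 and 0.186 to 0.666 CPM, overlapped. With all 4 libraries Lef1 had a fitted value of -3.73 ± 1.21 on the log2 scale (SE; adjusted p = 0.153 in edgeR, 0.00421 in DESeq2). Without control 1 it was -0.74 ± 0.66 with an interval of -2.38 to 0.90 (adjusted p = 0.802 in edgeR), and 0% of all genes passed in that fit. Lef1 had a log2 fold change of -3.71 in the authors' deposited table (adjusted p = 0.00408), which also used control 1.

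T-lineage markers varied with both factors. Control 1 is set apart for holding them, so their values are a description with no test. All 26 listed markers, among them Rag1, which recombines antigen receptor genes, the kinase Lck, the co-receptor Cd8a and the T-cell receptor gene Trbc2, were highest in control 1. Their summed level was 601 CPM there, 18.9 CPM in control 2, and 12.0 and 6.80 CPM in Cre+ 1 and Cre+ 2. Of the 26 markers, 23 were also higher in control 2 than in both Cre+ libraries. Tcf7 and Lef1 followed that order too, as did 37.8% of the 18979 genes tested without control 1. Only 20 of the 26 markers passed the filter on low counts there, and 6 had 0 counts in Cre+ 2, so that share is over a set unlike the 26. Markers of thymic epithelium behaved likewise in control 1: Foxn1, the master regulator of that tissue, was at 4.01 CPM and the thymoproteasome subunit Psmb11 at 4.12 CPM in control 1, against at most 0.0409 and 0.0226 CPM elsewhere. Krt5, a keratin of its medulla, was as high as 19.7 CPM there but reached only 0.0613 CPM in any other library. Others of the 9 listed kept a level, up to 36.2% of that in control 1 for control 2. The 9 summed to 103 CPM in control 1, 9.54 CPM in control 2, and 9.23 and 12.4 CPM in Cre+ 1 and Cre+ 2. Of them, 4 were higher in control 2 than in both Cre+ libraries.

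Tcf7 and Lef1 kept more of their control 1 level in the other control than most T-lineage markers did. Control 2 held 4.13% of control 1's Tcf7 level and 6.70% of its Lef1 level. The median over the 26 markers was 2.25%, with a range of 1.16% to 26.7%, and 22 of them lay below the value of Tcf7 and 24 below that of Lef1. Fewer cells of a type and less RNA per cell cannot be told apart in these bulk samples. The part of the T-lineage transcripts in the values of Tcf7 and Lef1 in the remaining 3 libraries was not tested.

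**Figure D2:**
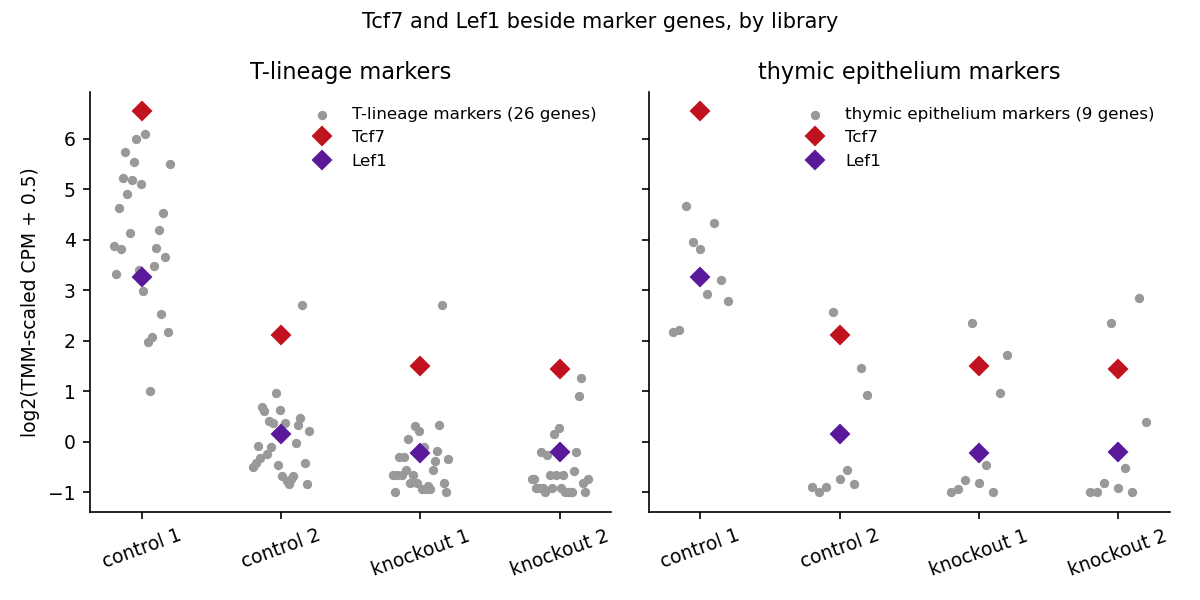
log2(TMM-scaled CPM + 0.5) by library for Tcf7 and Lef1 (diamonds) beside 26 T-lineage markers (left, grey points) and 9 thymic epithelium markers (right, grey points). Both factors and all 26 T-lineage markers are highest in control 1, as are the 9 thymic epithelium markers, some of which keep a level in the other 3 libraries.

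By Euclidean distance of log2(CPM + 0.5) centred on each gene's mean over the 4 libraries, the coding genes nearest to Tcf7 were Lat, Rasal3 and Cd3g (0.253 to 0.320). Those nearest to Lef1 were Sash3, Ccr7 and Slamf6 (0.153 to 0.190). Of these, Lat, an adaptor of T-cell receptor signalling, and Cd3g, a chain of that receptor, belong to the T-lineage list. Lat had 33.8 CPM in control 1, 1.04 CPM in control 2, 0.654 CPM in Cre+ 1 and 0.710 CPM in Cre+ 2. With 4 libraries such likeness is a description of where the genes were high.

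Tcf7l1 (ENSMUSG00000055799.13, chr6:72626378-72789254, reverse strand), the TCF3 protein that acts mostly as a repressor, was the steadiest of the 10. It was at 25.3 (control 1) and 23.5 CPM (control 2), against 23.4 (Cre+ 1) and 22.4 CPM (Cre+ 2). The Cre+ values lay below both controls, but by less than the gap between the controls. The log2 fold change was -0.09 ± 0.17 with a 95% interval of -0.51 to 0.32 (adjusted p = 0.781 in edgeR). With offsets for GC content and length it was 0.28, so its direction depends on that choice. The genes nearest to it in pattern, Rbbp6, Fzr1 and Pold3, lay within a distance of 0.0114.

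Tcf7l2 (ENSMUSG00000024985.18, chr19:55741820-55933654, forward strand), which gives TCF4 and is the other TCF/LEF factor with a clear level outside control 1, was lower in both Cre+ libraries. It was at 21.1 (control 1) and 23.2 CPM (control 2), against 17.8 (Cre+ 1) and 13.8 CPM (Cre+ 2). The groups did not overlap, and Cre+ 2 was the lowest. The log2 fold change was -0.49 ± 0.21 (SE, n = 2 each; interval -1.002 to 0.03, adjusted p = 0.238 in edgeR). It was -0.55 without control 1 and -0.38 with GC and length offsets. The nearest genes in pattern were Phf21a, Cspp1 and Zfc3h1, at distances of 0.0179 to 0.0430.

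Tcf7l1 took the largest share of the TCF/LEF transcripts in the 3 libraries other than control 1. Per base of exon, Tcf7l1 took 58.9% of the TCF/LEF pool in control 2 and 66.8% and 69.8% in Cre+ 1 and Cre+ 2. Tcf7l2 took 26.01%, 22.8% and 19.3% in the same order, Tcf7 14.4%, 9.93% and 10.4%, and Lef1 at most 0.686%. In control 2 the lead of Tcf7l1 depended on the length used, being 49.2% against 39.8% for Tcf7l2 by longest transcript and 45.9% against 45.3% with no division by length. In control 1 Tcf7 alone took 78.2% and Tcf7l1 14.2%. The share of Tcf7l2 was thus lower in both Cre+ libraries than in control 2, and control 2 and Cre+ 1 lay about as far apart as the 2 Cre+ libraries did. The exact permutation test of 2 against 2 libraries cannot go below 0.333, so the shares are given with no test.

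**Figure D3:**
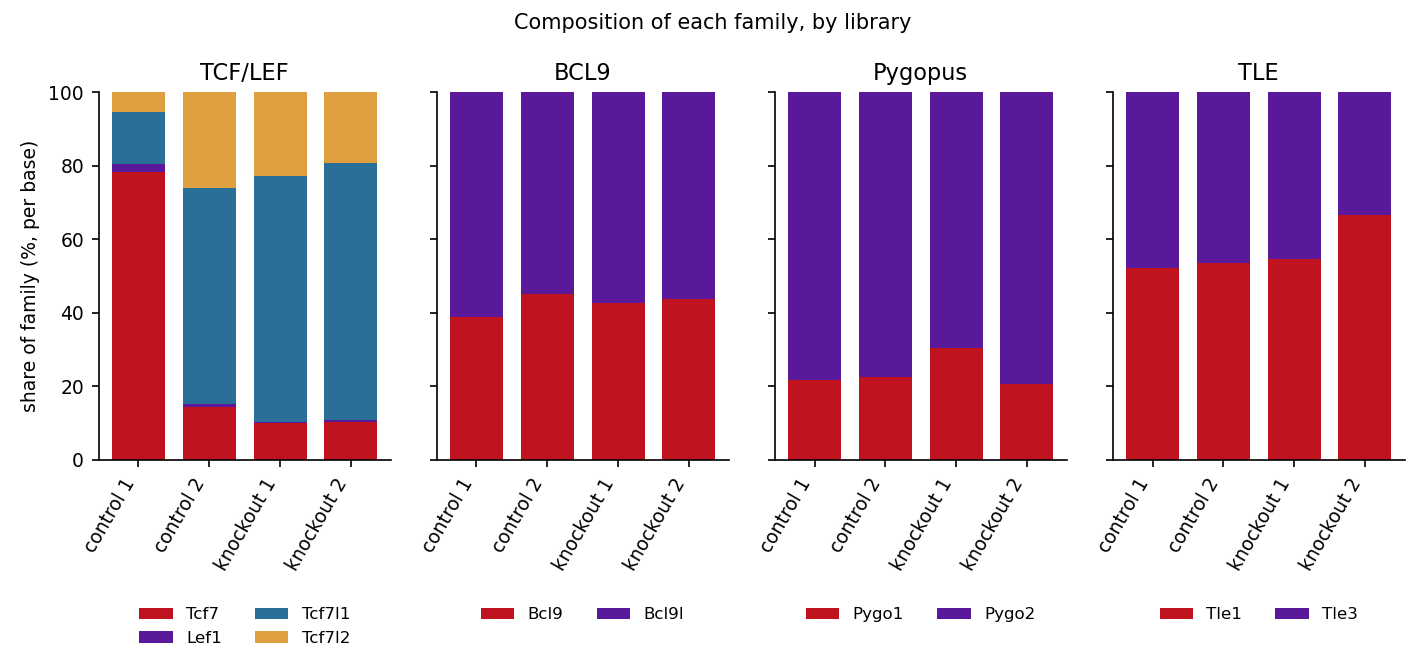
Share of each gene in its family, in percent of counts per base of exon, for each library (stacked bars, 100% a family). Tcf7 fills 78.2% of the TCF/LEF bar in control 1 and between 9.93% and 14.4% in the other 3 libraries, where Tcf7l1 is the largest part.

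The adaptors Bcl9 and Bcl9l showed the largest differences outside Tcf7 and Lef1. Bcl9 (ENSMUSG00000038256.15, chr3:97203662-97297917, reverse strand) was at 81.4 (control 1) and 78.0 CPM (control 2), against 54.0 (Cre+ 1) and 37.3 CPM (Cre+ 2). The controls lay close together, both Cre+ values were lower, and Cre+ 2 was the lowest. The log2 fold change was -0.80 ± 0.21 (SE, n = 2 each; interval -1.32 to -0.28, adjusted p = 0.120 in edgeR and 0.0312 in DESeq2). Leaving out control 1 gave -0.77 (interval -1.58 to 0.03, adjusted p = 0.649 in edgeR).

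Bcl9l (ENSMUSG00000063382.6, chr9:44482825-44511896, forward strand), its paralog, followed the same order with a wider gap between the controls. It was at 121 (control 1) and 89.7 CPM (control 2), against 68.8 (Cre+ 1) and 45.7 CPM (Cre+ 2). The log2 fold change was -0.88 ± 0.26 (SE; interval -1.51 to -0.25, adjusted p = 0.135 in edgeR and 0.0373 in DESeq2). Leaving out control 1 gave -0.65 (interval -1.49 to 0.19, adjusted p = 0.690 in edgeR). In the authors' deposited table Bcl9 and Bcl9l had log2 fold changes of -0.78 and -0.86 (adjusted p = 0.0311 and 0.0372), and that table listed 4.62% of its genes as lower. Without Cre+ 2, the library high in Xist, the log2 fold changes were -0.55 for Bcl9 and -0.60 for Bcl9l in edgeR. Without Cre+ 1 they were -1.04 and -1.15, so their size depended on the Cre+ library kept. The balance between them differed little, with Bcl9 taking 38.9% and 45.1% of the pair per base in the controls and 42.6% and 43.6% in the Cre+ libraries.

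The coding sequences of this pair are printed because they were the 2 cofactors that DESeq2 called and their reads must be separable for that. Their most similar 90-base stretch has 72 identical bases (capitals), shown 5′ to 3′ on the coding strand from GENCODE M21 on GRCm38.
Bcl9: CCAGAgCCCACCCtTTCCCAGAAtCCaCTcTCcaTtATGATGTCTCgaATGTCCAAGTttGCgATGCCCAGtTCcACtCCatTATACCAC
Bcl9l: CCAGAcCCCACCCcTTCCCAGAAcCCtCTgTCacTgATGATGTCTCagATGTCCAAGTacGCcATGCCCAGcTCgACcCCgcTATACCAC
These lie at chr3:97207232-97207321 (reverse strand, exon 9 of Bcl9) and chr9:44508251-44508340 (forward strand, exon 8 of Bcl9l), and the longest run that any of their transcripts share is 20 bases.

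Of the Pygopus genes, which supply the last link of the chain, Pygo2 was lower and Pygo1 overlapped. Pygo2 (ENSMUSG00000047824.13, chr3:89430214-89435128, forward strand) was at 36.6 (control 1) and 36.4 CPM (control 2), against 23.3 (Cre+ 1) and 28.8 CPM (Cre+ 2). Both were below the controls, which hardly differed, and here Cre+ 1 was the lower. The log2 fold change was -0.49 ± 0.18 (SE; interval -0.92 to -0.05, adjusted p = 0.182 in edgeR), and -0.48 without control 1. Pygo1 (ENSMUSG00000034910.5, chr9:72925645-72952181, forward strand) was at 22.1 (control 1) and 23.0 CPM (control 2), against 22.3 (Cre+ 1) and 16.4 CPM (Cre+ 2). Only Cre+ 2 lay below both controls, and the log2 fold change of Pygo1 was -0.22 with an interval of -0.75 to 0.30 (adjusted p = 0.576 in edgeR). It was -0.01 without Cre+ 2 and -0.41 without Cre+ 1.

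The co-repressors Tle1 and Tle3 differed in pattern. Tle3 (ENSMUSG00000032280.16, chr9:61372366-61418497, forward strand) was at 35.9 (control 1) and 28.1 CPM (control 2), against 22.2 (Cre+ 1) and 21.1 CPM (Cre+ 2), both Cre+ values below either control. Its log2 fold change was -0.56 ± 0.19 (SE; interval -1.03 to -0.09, adjusted p = 0.165 in edgeR), and -0.37 without control 1. Tle1 (ENSMUSG00000008305.18, chr4:72117142-72200919, reverse strand) was at 29.2 and 24.2 CPM in the controls, 20.0 CPM in Cre+ 1 and 31.3 CPM in Cre+ 2. The Cre+ libraries thus held both the lowest and the highest Tle1 level, and the fitted log2 fold change, -0.06 ± 0.26 (interval -0.69 to 0.57, adjusted p = 0.911 in edgeR), became 0.08 without control 1.

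Per kilobase of exon, the Cre+ libraries ranked the genes from Pygo2 (6.42 to 7.93 CPM per kilobase) and Bcl9l (5.71 to 8.60) through Tcf7l1 (5.71 to 5.96) and Bcl9 (4.42 to 6.39), neighbours whose ranges overlapped. Tle1 (2.30 to 3.59), Pygo1 (2.07 to 2.81), Tle3 (1.81 to 1.91) and Tcf7l2 (1.58 to 2.03) formed a lower tier in which Pygo1 overlapped Tle1, and Tle3 overlapped Tcf7l2. Tcf7 (0.850 to 0.885) and Lef1 (0.0411 to 0.0423) stood below all others. In control 2 the order began with Bcl9l at 11.2, Pygo2 at 10.02 and Bcl9 at 9.23 CPM per kilobase, with Tcf7l1 at 5.99. The summed level of Bcl9 and Bcl9l was 24.8 and 20.5 CPM per kilobase in the controls and 14.998 and 10.1 in the Cre+ libraries.

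**Figure D4:**
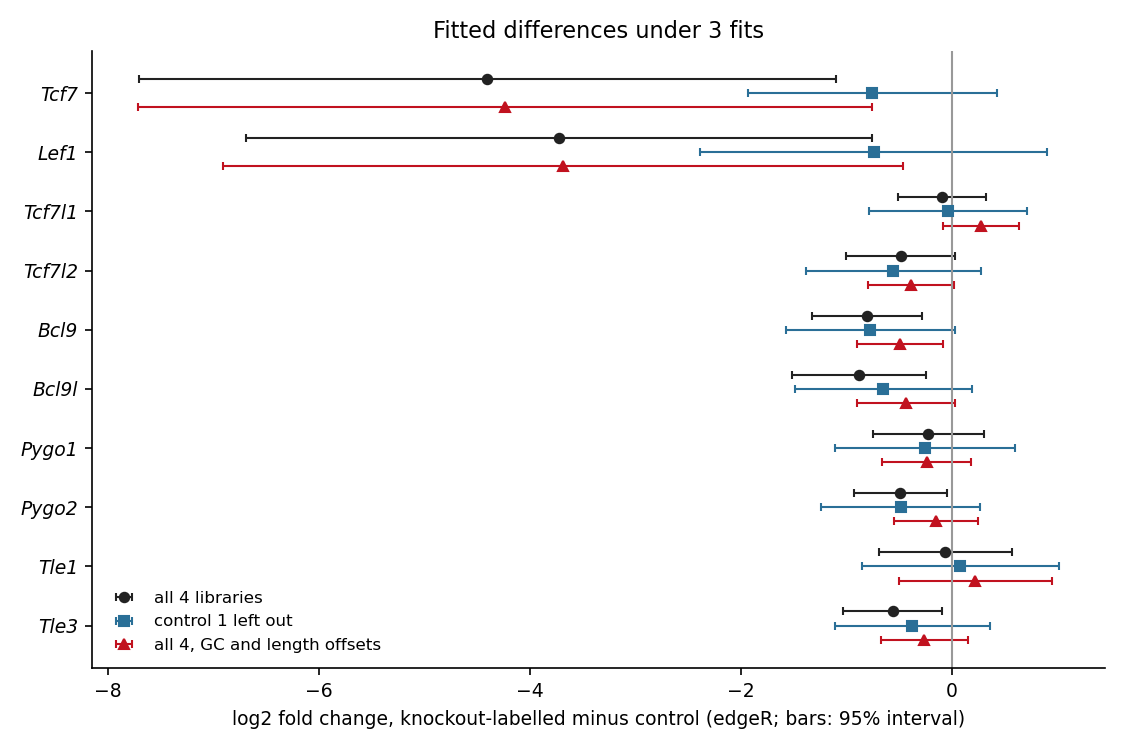
Fitted log2 fold change, Cre+ minus control, of each gene with its 95% interval (bars) in 3 edgeR fits: all 4 libraries, control 1 left out, and all 4 with offsets for GC content and length. Tcf7 moves from -4.41 to -0.75 and Lef1 from -3.73 to -0.74 when control 1 is left out, and every interval of that fit includes 0.

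With control 1 set apart, the remaining comparison was that of control 2 with the Cre+ libraries. Both lay below control 2 for 9 of 10 genes, where 37.8% of 18979 genes did so, and above it for 0, where 33.6% did. Tle1 was the exception. The median log2 fold change of the 10 was -0.52 (all genes -0.02), and 0 of 10 passed in edgeR, as did 0% of all genes. DESeq2 without control 1 gave log2 fold changes of -0.72 for Lef1, -0.75 for Bcl9 and -0.63 for Bcl9l, the genes it called with all 4 libraries. Its share of all genes called was not counted in that fit, so the counts given here are those of edgeR. At an unadjusted p under 0.05, 0 of 10 were lower, where 3.59% of all genes were. The lone control is assumed to vary like the Cre+ libraries. Control 1 differed little from control 2 in Bcl9, Pygo1, Pygo2, Tcf7l1 and Tcf7l2, with ratios between 0.909 and 1.08, and more in Tle1 (1.20), Tle3 (1.28) and Bcl9l (1.35).

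GC content varied with these differences. Over 5 equal bins of tested coding genes by GC content of the longest transcript, the median log2 fold change went from 0.22 in the lowest bin to -0.29 in the highest, above 55.6% GC. Bcl9l (60.1% GC), Tcf7l1 (59.3%) and Pygo2 (58.2%) lie in that highest bin, and Tcf7, Bcl9, Tle1 and Tle3 in the next. With offsets for smooth trends of each library on GC content and length, the log2 fold change of Bcl9l was -0.43, that of Bcl9 -0.49, that of Pygo2 -0.15 and that of Tle3 -0.26 (edgeR, adjusted p = 0.247, 0.178, 0.618 and 0.404). The median of the 10 was then -0.32 (0.02 over all genes), with 8 below 0 where 48.3% of all genes were. At an unadjusted p under 0.05, 3 of 10 were lower in that fit (Tcf7, Lef1 and Bcl9), where 9.58% of all genes were. Of these, Tcf7 (-4.24) and Lef1 (-3.69) rest on control 1. With the offsets and without control 1, the log2 fold changes were -0.65 for Tcf7, -0.63 for Lef1 and -0.52 for Bcl9. In the same fit they were -0.43 for Tcf7l2, -0.29 for Bcl9l, -0.23 for Pygo2, -0.20 for Pygo1 and -0.13 for Tle3. Tcf7l1 (0.24) and Tle1 (0.31) lay above 0 there. Multi-mapped reads, which were not counted to genes, also differed in share between the groups, at 19.4% and 20.98% in the controls and 23.9% and 29.7% in the Cre+ libraries, and the part of this in the differences was not tested.

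**Figure D5:**
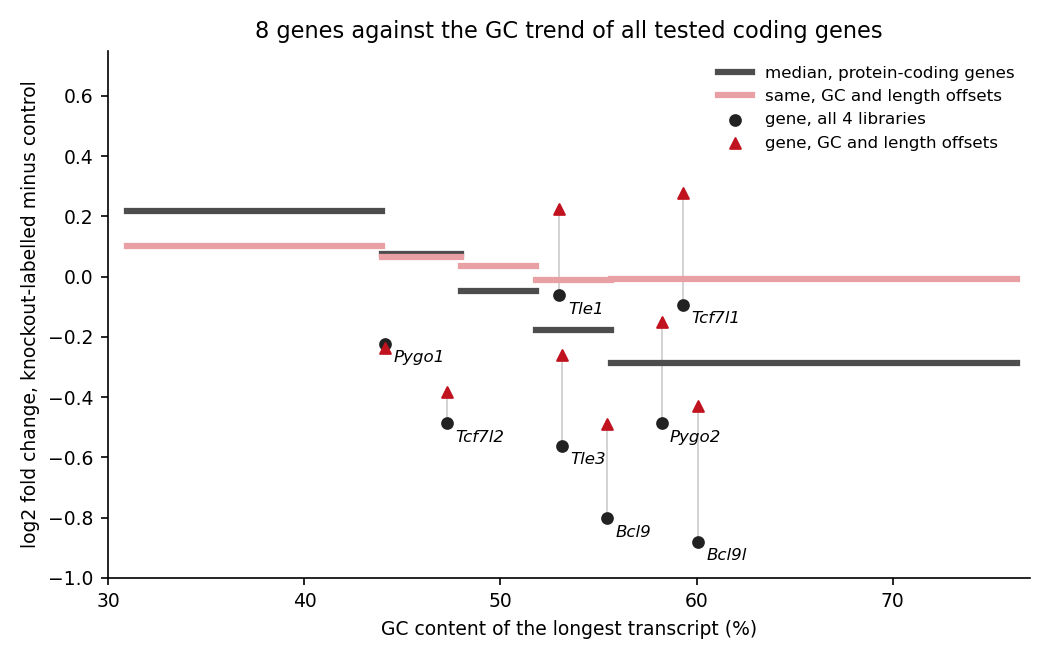
log2 fold change against GC content (percent) for 8 of the 10 genes, without Tcf7 and Lef1, whose values rest on control 1. Horizontal bars are medians of tested coding genes in 5 bins of GC content, grey without and pink with GC and length offsets; circles and triangles are the 8 genes in the same fits. With the offsets Bcl9l goes from -0.88 to -0.43 and Bcl9 from -0.80 to -0.49, while Tcf7l1 (0.28) and Tle1 (0.22) lie above 0.

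Other nuclear partners of the pathway were read from lists, and 0 of their genes passed over all genes in edgeR. DESeq2, which called 4.65% of all genes lower, called lower 1 Groucho/TLE relative (Tle2), 3 co-activators (Kmt2d, Med12 and Ldb1) and 1 antagonist (Hic1). Of the 4 tested Groucho/TLE relatives, Tle2 stood out. This co-repressor was at 37.9 (control 1) and 44.6 CPM (control 2), against 16.9 (Cre+ 1) and 11.3 CPM (Cre+ 2), and its fitted difference was -1.55 ± 0.24 on the log2 scale (SE; adjusted p = 0.0925 in edgeR and 1.8e-05 in DESeq2), and -1.18 with GC and length offsets. Aes, the short TLE protein that lacks the repressor repeats, was at 662 (control 1) and 547 CPM (control 2), against 680 (Cre+ 1) and 667 CPM (Cre+ 2). The remaining relatives, Tle4 and Tle6, had adjusted p-values of 0.720 and 0.377.

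Of 21 listed nuclear co-activators, all tested, 6 were lower and 0 higher at an unadjusted p under 0.05 (edgeR), where 11.2% and 11.8% of all genes were. Both Cre+ libraries lay below both controls for 7 and above them for 2, where 29.7% and 26.5% of all genes did so, and the former share is near that background. Kmt2d, a histone methyltransferase, was at 182 (control 1) and 160 CPM (control 2), against 81.8 (Cre+ 1) and 66.5 CPM (Cre+ 2) (log2 fold change -1.21, adjusted p = 0.0925 in edgeR and 1.8e-05 in DESeq2). Med12, a Mediator subunit to which Pygopus binds, was at 103 and 99.2 CPM against 60.7 and 50.7 CPM (-0.86, adjusted p = 0.0925 in edgeR and 0.00282 in DESeq2). Ldb1, of the complex that Pygopus joins at enhancers, was at 271 and 245 CPM against 155 and 153 CPM (-0.74, adjusted p = 0.102 in edgeR and 0.00575 in DESeq2), and the acetyltransferase Ep300 had a log2 fold change of -0.54. With GC and length offsets the values were -0.74 for Kmt2d, -0.63 for Med12, -0.42 for Ldb1 and -0.29 for Ep300. The list's median was -0.14, and 0.14 with GC and length offsets, so its sign depends on that choice.

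Of 18 listed nuclear antagonists, 2 were lower and 1 higher at an unadjusted p under 0.05 (edgeR), shares at or below the 11.2% and 11.8% of all genes, and the median was 0.00. Hic1, a repressor that sequesters TCF factors, was at 30.3 (control 1) and 40.1 CPM (control 2), against 19.5 (Cre+ 1) and 19.1 CPM (Cre+ 2) (log2 fold change -0.87, adjusted p = 0.0997 in edgeR and 0.0156 in DESeq2; -0.34 with GC and length offsets). Sox17 and Sox7, endothelial factors that can restrain β-catenin, had log2 fold changes of -0.70 and -0.43, and the histone deacetylase Hdac2 had 0.39. Ruvbl2 stands in both this list and that of co-activators.

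Among 28 tested target and feedback genes of the pathway other than Tcf7 and Lef1, 15 lay lower in both Cre+ libraries and 5 higher, where 29.7% and 26.5% of all genes did. Their median log2 fold change was -0.38, -0.42 without control 1 and -0.22 with GC and length offsets. Lgr6, Bambi and Jag1 had log2 fold changes of -1.27, -0.81 and -0.76, and Apcdd1, an inhibitor of Wnt receptors, had 1.13 (adjusted p = 0.0925, 0.0925, 0.115 and 0.104 in edgeR). DESeq2 called 5 of the 28 lower (Lgr6, Bambi, Jag1, Axin2 and Dkk3) and 1, Apcdd1, higher, where it called 4.65% and 5.85% of all genes.

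The core letters that TCF/LEF factors bind were searched in the promoters of the 10 genes. The motifs CTTTGAT and CTTTGAA, on both strands, were looked for in the 250 bases before each RefSeq start (GRCm38.p6). They were in 0 of the 16 windows of the 9 genes matched, and in 7.48% of all 32851 windows. This says only that these letters are absent from these windows.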

How the data were processed

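Counts per gene were used for 2 control and 2 knockout-labelled libraries of polyA RNA, made with a stranded kit per the labels' protocols. The submitters' processing notes name bcl2fastq 2.16.0.10, FastQC 0.11.5, STAR 2.5.3a, HTSeq 0.6.1, DESeq2 1.18 and GRCm38. The raw counts were deposited without scaling, and the series table repeats them in 4 equal columns. Its log2 fold changes and p-values were deposited by the authors; 14 other columns were not used. The sources used here give neither the annotation release nor the read length.

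Of 53465 genes, 53360 matched GENCODE M21 by identifier. The 5 HTSeq summary categories stayed out of library sizes. In R 4.3.3, edgeR 4.0.16 kept 18157 genes (filterByExpr), scaled by TMM (factors 1.08, 1.10, 0.972 and 0.869) and fitted group alone, with a threshold of 0.05. DESeq2 1.42.0 ran on genes with at least 1 count, and limma 3.58.1 gave voom. GC and length offsets used splines with 5 degrees of freedom per library. The main edgeR fit, its alternatives in scaling, filter and replicate block, DESeq2 and limma-voom were run on simulated data. Fits with GC and length offsets, with a crossed block or with a library left out were not. Reads counted in overlapping genes were left out by the authors' counting as ambiguous (3.90% to 4.85% of reads, per the files).

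The 10 genes and all lists were chosen with earlier results of these data known. Named genes were the 10, Ctnnb1, up to 4 of the smallest p from each list of pathway genes, the 4 most abundant T-lineage markers and the 3 coding genes nearest to each TCF/LEF factor. Foxn1, Psmb11, Krt5, Ebf1, Axin2, Dkk3, Ruvbl2, Xist and Kdm5d were chosen after their values were seen. Of the other marker lists, cardiomyocyte (median log2 fold change 0.27), fibroblast (0.01), endothelial (-0.04), smooth muscle and pericyte (-0.13), atrial and epicardial (0.15), B-lineage (-0.998), myeloid (-0.53) and thymic epithelium (-1.10) markers, 0 members passed in edgeR. The replicate numbers do not pair libraries by any label.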

Additional observations from a re-analysis of the deposited data

How the results depend on the processing

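In the edgeR, limma-voom and DESeq2 fits with all 4 libraries, and in edgeR with each library left out, 0 of the 10 genes were called higher; lower calls were 3 in DESeq2, 0 to 1 with 1 library left out (Tcf7, without control 2) and 0 in every other setting. Over all genes, the 2 higher and 0 lower calls became 313 and 241 with no filter on low counts, 964 and 767 in DESeq2 and 0 and 0 in limma-voom. With 1 library left out they ranged from 0 to 9 higher and from 0 to 30 lower. Deviations of same-numbered libraries from their group means were only weakly and inversely correlated (r = -0.13 over 18157 genes). A replicate block gave 9 higher and 9 lower calls over all genes and 0 of the 10, and with GC and length offsets besides, 0 and 0. The crossed pairing, added after the data were seen, gave 501 higher and 440 lower calls over all genes. It stands outside the settings given for the 10 genes, and its calls among them were not counted. The cause of these shifts was not tested.

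Of 120 values of the 10 log2 fold changes under alternatives, 110 kept direction and side of the threshold. Tcf7l1 reversed to 0.28 with GC and length offsets, with and without the replicate block, and to 0.24 with the offsets and without control 1. Tle1 reversed to 0.22 with the offsets, 0.17 with the block besides, 0.08 without control 1 and 0.28 without knockout-labelled library 1, within a range of -0.41 to 0.28 over the libraries left out. Leaving out control 1 and scaling by library totals gave -0.19 for Tle1. Library totals shifted the median of all genes from -0.02 to -0.26. The genes lying lower in both knockout-labelled libraries numbered 7 with DESeq2's size factors, 9 with library totals and 8 to 9 with a library left out, and those higher 0 to 1. Without control 1 the share of all genes lying lower was 37.8%, against 29.7% in the main setting. That share was not counted in the other settings, so the counts there have no background and are not read as results on the 10 genes. Family shares depended on the length used: counts without length put Tcf7l1 at 55.5% and Tcf7l2 at 38.1% of the knockout-labelled TCF/LEF pool, against 68.3% and 21.01%, and Tcf7l1 at 45.9% in control 2. Depth limits Lef1, at 11 to 30 counts outside control 1.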

Other observations

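Smooth muscle and pericyte markers, which belong to none of the comparisons above, summed to 973 (control 1) and 1156 CPM (control 2), against 2204 (Cre+ 1) and 1751 CPM (Cre+ 2), although the median log2 fold change of the 9 genes was -0.13. Fibroblast markers summed to 2994 CPM in control 1 and to 4681, 4750 and 4119 CPM in control 2, Cre+ 1 and Cre+ 2, so control 1 was the lowest. Myeloid markers summed to 253 (control 1) and 190 CPM (control 2), against 147 (Cre+ 1) and 195 CPM (Cre+ 2), and B-lineage markers to between 20.1 and 28.5 CPM in all 4. Ebf1 made up most of the B-lineage sum, at 17.6 to 24.9 CPM.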
